A study of Rattus norvegicus with 24 samples.

Results

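Atrial cardiomyocyte transcripts were followed in the left ventricle plus septum of rats that had received particulate matter (PM), its leachate or zinc by intratracheal instillation. The 4 transcripts, Myl7, Myl4, Sln and Nppa, are textbook genes of atrial muscle and were selected on their signal and correlation over these same arrays. They are 4 of the 10411 genes that had a probe set annotated to a single symbol, with 1 probe set each, and no other probe set named them.

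The 24 arrays came from male Wistar Kyoto rats bought at 12 to 14 weeks of age, with 4 in each of 6 groups, all instilled weekly with 1 mL/kg under halothane anesthesia and killed 48 h after the last dose. The saline group was the vehicle control. The MSH group received Mount St. Helens volcanic ash, which carries no water-soluble zinc or other metal. The PM-HD group received a whole suspension of oil combustion particles with 14.5 µg/mg zinc and 3.0 µg/mg nickel in soluble form, and the PM-LD group the suspension labelled 7.25 µg/mg zinc and 1.5 µg/mg nickel. The study describes PM-LD as the PM-HD particle sample given at a lower dose. The PM-L group received the soluble leachate alone. The zinc sulfate group received the dissolved salt, which the labels give as 14.5 µg/mL in one field and 33.4 µg/mL in another. The study describes its saline, MSH, PM-HD and zinc sulfate arrays as the 8-week animals, and no week was given for the PM-LD and PM-L arrays. RNA came from left ventricular and septal tissue without the right ventricle, and the methods do not mention the atria at this step. The labels number the 4 arrays of a group as replicates, read here as 1 rat each. The p-values set a difference between groups against the spread between these samples. In the linear model fits (limma) that spread was pooled over the groups fitted and drew on all probe sets.

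Atrial and ventricular muscle use different sarcomere and calcium-handling proteins. Myl7 encodes the atrial regulatory myosin light chain and Myl4 the atrial essential light chain, where the ventricle uses Myl2 and Myl3. Sln encodes sarcolipin, a small membrane protein that inhibits the calcium pump of the sarcoplasmic reticulum, a task that phospholamban (Pln) has in the ventricle. Nppa encodes atrial natriuretic peptide, a hormone that promotes salt and water loss. Atrial myocytes store and release it, and stretched or overloaded ventricular myocytes also switch the gene on, together with Nppb, which encodes brain natriuretic peptide.

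RefSeq promoter windows on build GRCr8, from 250 bases before to 50 bases after each annotated gene start, were at hand for Myl7, Myl4 and Nppa, and show how far the members share promoter letters. Those of Mybphl, the gene whose signal ran closest to Myl7, Myl4 and Sln, and of Nppb, the ventricular partner of Nppa, are printed for comparison. Capitals mark matches, on either strand, to the TATA box TATAAA, the GATA factor motif (AGATAA with its variant AGATAG, and TGATAA with its variant TGATAG), the NK2 homeobox motif CAAGTG and the T-box motif GGTGTG. The NK2 motif is also one form of the E-box CANNTG.
Myl7 (chr14:84996575-84996874, minus strand): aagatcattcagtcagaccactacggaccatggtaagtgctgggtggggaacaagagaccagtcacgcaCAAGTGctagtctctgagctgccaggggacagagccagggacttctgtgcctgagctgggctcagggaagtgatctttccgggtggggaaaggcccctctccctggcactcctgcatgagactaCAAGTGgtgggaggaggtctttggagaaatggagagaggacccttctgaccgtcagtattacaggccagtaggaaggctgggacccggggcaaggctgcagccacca
Myl4 (chr10:89975900-89976199, plus strand): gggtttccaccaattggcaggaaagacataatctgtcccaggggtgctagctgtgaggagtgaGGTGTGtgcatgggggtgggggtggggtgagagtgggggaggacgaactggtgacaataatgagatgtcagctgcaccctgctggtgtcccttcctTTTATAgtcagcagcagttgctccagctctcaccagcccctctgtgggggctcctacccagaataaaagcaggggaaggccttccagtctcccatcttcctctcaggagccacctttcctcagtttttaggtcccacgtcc
Nppa (chr5:163711934-163712233, plus strand): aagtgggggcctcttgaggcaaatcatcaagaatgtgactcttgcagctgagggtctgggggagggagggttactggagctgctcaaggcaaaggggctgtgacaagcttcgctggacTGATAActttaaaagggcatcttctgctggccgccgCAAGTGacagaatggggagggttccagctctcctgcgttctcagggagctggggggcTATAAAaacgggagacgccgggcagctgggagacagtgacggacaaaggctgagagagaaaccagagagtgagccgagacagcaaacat
Mybphl (chr2:198693202-198693501, plus strand): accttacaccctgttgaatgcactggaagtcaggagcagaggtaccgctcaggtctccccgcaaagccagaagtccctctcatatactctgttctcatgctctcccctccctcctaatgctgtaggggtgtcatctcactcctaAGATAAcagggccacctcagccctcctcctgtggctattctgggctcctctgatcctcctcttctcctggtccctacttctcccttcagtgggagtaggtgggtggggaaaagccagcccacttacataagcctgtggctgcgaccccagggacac
Nppb (chr5:163699758-163700057, plus strand): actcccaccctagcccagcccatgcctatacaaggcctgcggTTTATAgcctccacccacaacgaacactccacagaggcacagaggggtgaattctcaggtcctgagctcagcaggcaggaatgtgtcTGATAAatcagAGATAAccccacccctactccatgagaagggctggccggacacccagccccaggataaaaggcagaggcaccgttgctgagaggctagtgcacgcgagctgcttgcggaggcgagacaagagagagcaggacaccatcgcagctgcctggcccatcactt

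The Myl7 window held CAAGTG at positions -181 and -57 from the gene start. The Nppa window held a TATA box at -39, CAAGTG at -96 and TGATAA at -132. The Myl4 window held GGTGTG at -187 and the letters TATAAA on the opposite strand at -91. Mybphl had AGATAA at -106, and Nppb had TGATAA at -121, AGATAA at -110 and the letters TATAAA on the opposite strand at -208. No motif was common to the 3 member windows. Of 33469 RefSeq windows of this length, 14.2% held TATAAA, 30.3% a GATA motif, 14.1% CAAGTG and 17.9% GGTGTG. These matches describe letters only, and the arrays did not measure binding. The annotated starts of Myl7 and Myl4 used for these windows lay inside the span of the gene.

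Myl7, Myl4 and Sln varied widely between rats of one group, and the same rat was the highest for all 3 in 6 of 6 groups. Signal is the deposited array brightness, scaled so that each array has the same trimmed mean, and has no unit. Myl7 signal was 7848.9, 169.4, 172.3 and 533.6 in saline replicates 1 to 4. In MSH rats Myl7 signal was 5076.3, 483.5, 1398.8 and 1345.9. One saline rat therefore stood far above its group, whereas no MSH rat was as low as saline replicates 2 and 3. Myl7 signal was 102.8, 1935.2, 104.5 and 295.6 in PM-HD rats. In PM-LD rats Myl7 signal was 164.5, 11945.7, 626.5 and 120.2. A single rat, replicate 2 in both, carried most of the group signal. Myl7 signal was 105.7, 12169.0, 480.7 and 5511.3 in PM-L rats. In zinc sulfate rats it was 375.7, 5316.5, 469.8 and 297.2. All 6 groups overlapped, and the highest array exceeded the lowest 118-fold around a median of 482.1.

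Myl4, the partner light chain of atrial myosin, followed rat by rat. Its signal was 3956.3, 138.9, 131.6 and 184.0 in saline rats. MSH rats gave 1079.1, 258.6, 524.7 and 658.5 for Myl4. Saline replicate 1 was again high, and the other 3 saline rats were below every MSH rat. PM-HD rats gave 99.7, 662.1, 103.2 and 234.2 for Myl4. PM-LD rats gave 110.8, 6415.3, 334.3 and 105.0. Replicate 2 was again the high animal in both. PM-L rats gave 111.3, 6138.3, 249.0 and 1618.8 for Myl4. Zinc sulfate rats gave 125.5, 2174.1, 314.2 and 160.0. The range was 64.3-fold around a median of 253.8, and the groups overlapped.

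Sln, the atrial inhibitor of the calcium pump, had the widest range of the 4, 349-fold, with dim arrays at its low end. Its signal was 3010.0, 26.5, 14.5 and 197.9 in saline rats. MSH rats gave 860.2, 153.7, 227.6 and 351.6 for Sln. The lowest value, in saline replicate 3, was the only one under 16, the amount added before taking logs. PM-HD rats gave 285.0, 583.9, 33.7 and 115.8 for Sln. PM-LD rats gave 71.5, 4407.1, 252.5 and 38.7. PM-HD replicate 1 ranked 9 of 24 for Sln but 24 of 24 for both light chains, an exception to the shared order. PM-L rats gave 71.7, 5067.5, 126.7 and 1373.0 for Sln. Zinc sulfate rats gave 82.7, 1512.3, 114.7 and 136.2. The median was 175.8, and the groups overlapped.

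Nppa varied less and in a different order. Its signal was 10122.9, 3891.0, 3226.0 and 1751.8 in saline rats. MSH rats gave 8277.3, 5079.0, 14165.2 and 4241.1 for Nppa. Saline replicate 1 was high for this hormone gene too, but the highest MSH rat was replicate 3, not replicate 1. PM-HD rats gave 2736.7, 4978.8, 5545.4 and 3575.8 for Nppa, the narrowest of the 6 groups. PM-LD rats gave 8105.3, 18689.9, 3880.3 and 7503.3. PM-LD replicate 2 was the highest of its group for all 4 members. PM-L rats gave 9331.8, 19842.9, 3725.7 and 14328.8 for Nppa. Zinc sulfate rats gave 12120.5, 8441.5, 2255.9 and 4474.5. The highest array exceeded the lowest 11.3-fold around a median of 5312. The rat that led its group for Myl7, Myl4 and Sln also led it for Nppa in 3 of 6 groups, namely saline, PM-LD and PM-L.

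**Figure D1:**
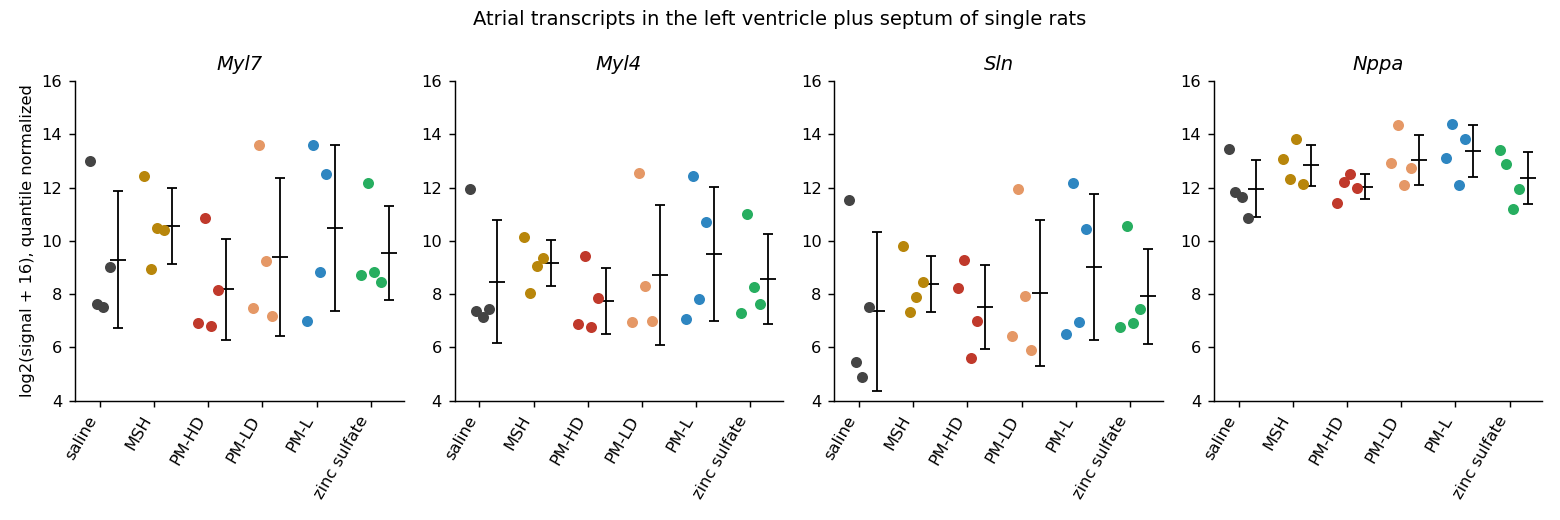
Level of each member in every rat by group, as log2(signal + 16) after quantile normalization. Points are rats in replicate order from left to right, and the black bar beside them is the group mean ± SD (n = 4). The groups overlap for all 4 genes, and single rats stand far above their group for Myl7, Myl4 and Sln.

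The spread within groups put 3 of the 4 members among the most variable probe sets of the array. The SD of log2(signal + 16) between rats of one group was 2.37 for Myl7, the largest among 15866 probe sets. It was 2.27 for Sln, the second largest, and 1.99 for Myl4, the fourth, against a median of 0.387 over all probe sets. Nppa, with an SD of 0.89, was at rank 356. The third rank belonged to a probe set that names the class I histocompatibility genes RT1-A3 and RT1-A2 together. These are descriptions, because the members were chosen by their values on the same arrays. In bulk tissue, fewer atrial cells and less RNA of these genes per cell cannot be told apart.

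**Figure D2:**
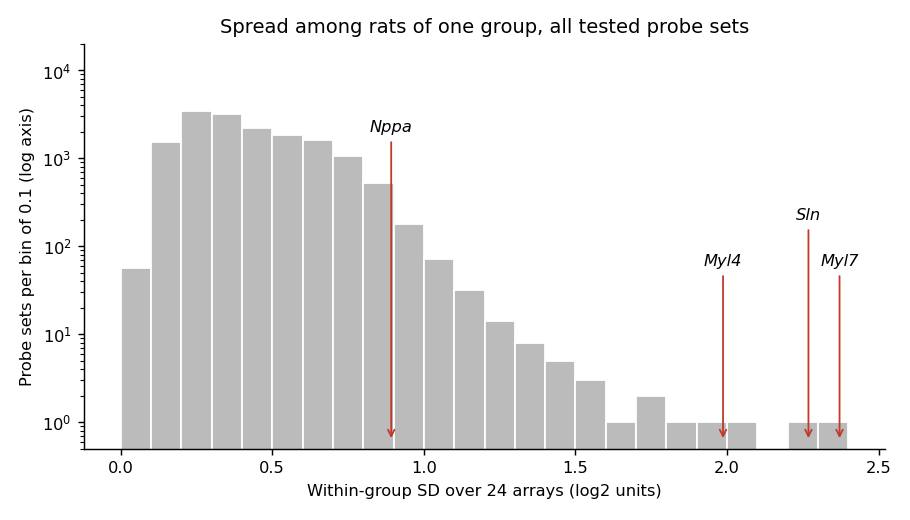
Within-group SD of log2(signal + 16) over the 24 arrays (x axis) against the number of probe sets per bin of 0.1 on a log axis. Arrows mark the 4 members. Myl7, Sln and Myl4 lie at 2.37, 2.27 and 1.99, while Nppa lies at 0.89.

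Neighbouring groups in the order of their mean log2 values did not differ beyond the larger of their SDs for any member. Sorting keeps such steps small, and groups farther apart in the order were not set against their SDs. For Myl7 the order from high to low was MSH, PM-L, zinc sulfate, PM-LD, saline and PM-HD. The widest step in it, from saline to PM-HD, was 1.11 on the log2 scale, against SDs of 2.56 and 1.89. For Myl4 and Sln the order began PM-L, MSH, PM-LD and zinc sulfate, followed for Myl4 by saline and PM-HD and for Sln by PM-HD and saline. For Nppa it was PM-L, PM-LD, MSH, zinc sulfate, PM-HD and saline. Its widest step, from MSH to zinc sulfate, was 0.48, against SDs of 0.77 and 0.98. Mean Nppa signal was 11810 ± 6889 (SD, n = 4) in PM-L and 4748 ± 3693 (SD, n = 4) in saline rats.

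Each exposure was then compared with saline, and zinc sulfate with MSH, to ask whether the members changed with the instilled material. A probe set was called at an unadjusted limma p under 0.05 with a change of over 25% up or down. Over all 15866 probe sets this rule called 3.57% in MSH, 3.67% in PM-HD, 4.11% in PM-LD, 4.25% in PM-L and 4.46% in zinc sulfate against saline, and 6.66% in zinc sulfate against MSH. Of 24 member comparisons, 1 was called, a share near that background. In all 24 the ranges of the rats overlapped. After Benjamini-Hochberg adjustment of the limma p over all probe sets, 2 probe sets passed 0.05 in PM-L and 0 in the other 5 comparisons, where 603 to 1154 had an unadjusted p under 0.05. Neither of the 2 was a member.

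Nppa in PM-L relative to saline was the called comparison, higher by 1.41 ± 0.59 (SE) on the log2 scale, a 2.65-fold difference (limma p = 0.0262, adjusted p = 0.999), with p = 0.143 in the exact permutation test (two-sided, 70 arrangements, smallest possible p = 0.0286). The 4 PM-L rats were all above the saline median, but PM-L replicate 3 was below saline replicates 1 and 2. The call was lost without PM-L replicate 2 (a log2 difference of 1.07) or replicate 4. It was lost too without saline replicate 3 (1.31) or 4 (1.05) and with each array centered on its median (1.33).

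The other members gave wide intervals in PM-L. Sln differed from saline by 1.67 on the log2 scale (95% interval -1.41 to 4.75), Myl7 by 1.19 (-2.03 to 4.41) and Myl4 by 1.04 (-1.66 to 3.74). Without PM-L replicate 2 these were 0.62, 0.15 and 0.06, and without saline replicate 1 they were 3.06, 2.43 and 2.19, where Sln was called. In PM-LD, Nppa differed from saline by 1.08 (-0.15 to 2.30) and the other 3 by 0.09 to 0.69. In PM-HD, Nppa differed by 0.08 (-1.09 to 1.2), Sln by 0.16, Myl4 by -0.73 and Myl7 by -1.11 (-3.75 to 1.54). In zinc sulfate rats the 4 members differed from saline by 0.08 to 0.57, and Nppa by 0.41 (-0.76 to 1.57). Relative to MSH, zinc sulfate gave -1.02 for Myl7 (-3.66 to 1.62), -0.60 for Myl4, -0.48 for Nppa (-1.65 to 0.69) and -0.45 for Sln. None of these passed the threshold.

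The comparison of MSH with saline turned on saline replicate 1. With all 8 rats, 0 of 4 members were called, and the log2 differences were 1.27 for Myl7 (-1.38 to 3.91), 0.68 for Myl4 (-1.50 to 2.86), 1.02 for Sln (-1.66 to 3.70) and 0.89 for Nppa (-0.28 to 2.06). Without saline replicate 1, 4 of 4 were called higher in MSH, where the same rule called 4.2% of all probe sets. That rat was the highest of the saline group for all 4 members, and the members were chosen on these signals. Leaving it out therefore lowers the saline means, and it was singled out after its values were seen. Myl7, Myl4 and Sln move together, so the 4 calls cannot be counted as separate results beside that share. The differences were then 2.50 ± 1.08 (SE) for Myl7, 1.83 ± 0.81 for Myl4, 2.41 ± 1.01 for Sln and 1.38 ± 0.50 for Nppa. The limma p lay between 0.016 and 0.0394 (adjusted p = 1 for each), and the exact permutation test over the 7 rats gave p = 0.0571 for Myl4, Sln and Nppa and 0.0857 for Myl7 (two-sided, 35 arrangements, smallest possible p = 0.0286). The lowest MSH rat was then above the highest saline rat for Myl4 (258.6 against 184.0) and Nppa (4241.1 against 3891.0), while Myl7 and Sln overlapped. How many of all probe sets separated in this way was not counted, and the saline rat highest for the members had been taken out. Saline replicate 1 also stood apart in its label: 23 arrays carry consecutive numbers in their titles and this one does not. Its ratio of 3′ to 5′ Gapdh signal, 1.35, was the lowest of the saline rats. The part of either in its high values was not tested.

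**Figure D3:**
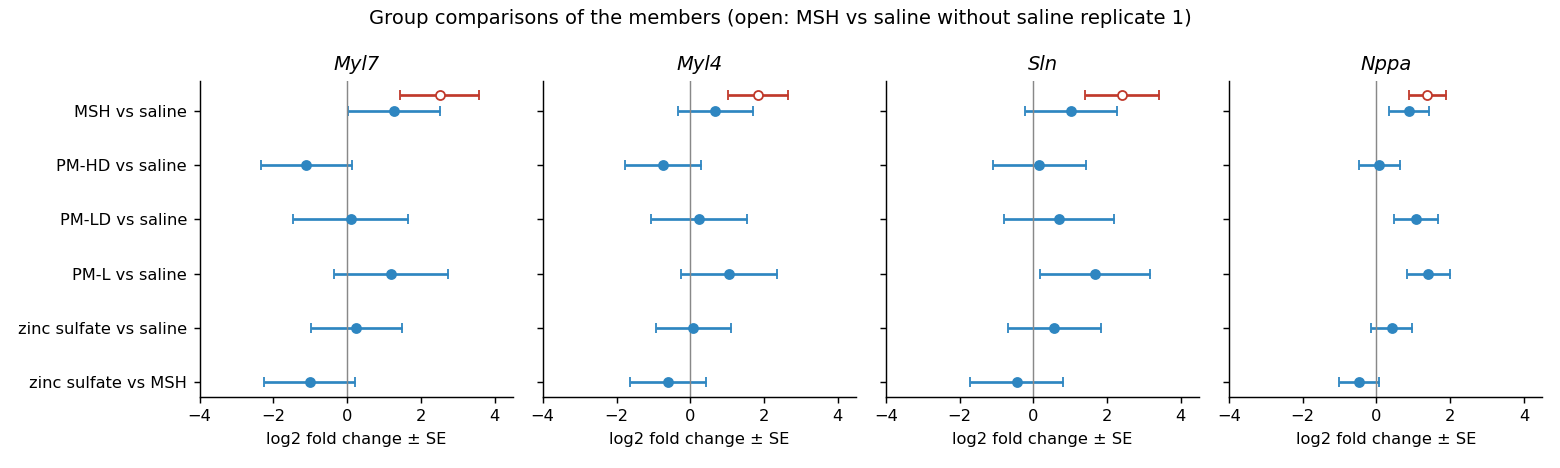
log2 fold change ± SE (x axis) of each member in the 6 group comparisons, first-named group minus second (blue), from the limma fits. Open red points are MSH relative to saline without saline replicate 1, which lie at 2.50, 1.83, 2.41 and 1.38 for Myl7, Myl4, Sln and Nppa.

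Across the 24 rats, Myl7, Myl4 and Sln rose and fell together. Pearson's r on the log2 scale was 0.975 for Myl7 with Myl4 (Spearman's rho 0.969), 0.944 for Myl4 with Sln (0.852) and 0.934 for Myl7 with Sln (0.860). After subtracting each group's mean, r was 0.978, 0.951 and 0.953. Without PM-LD replicate 2 and PM-L replicate 2, the arrays farthest from the median, r was 0.969, 0.912 and 0.905. These values describe transcripts measured on the same arrays and scaled together, and they had a part in the choice of the members, so no p is given. The 6 highest arrays were the same 6 for all 3 genes.

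Nppa departed from the others. Its r was 0.627 with Myl7, 0.655 with Myl4 and 0.598 with Sln, with rho of 0.502, 0.471 and 0.450. Within groups r was 0.620, 0.646 and 0.572, and without the 2 farthest arrays it fell to 0.456, 0.460 and 0.390. Of the 6 arrays highest for Nppa, 4 were among the 6 highest for the others, and the remaining 2 were MSH replicate 3 and zinc sulfate replicate 1. MSH replicate 3 ranked 4 of 24 for Nppa but 8, 9 and 11 for Myl7, Myl4 and Sln. Zinc sulfate replicate 1 ranked 5 for Nppa but 15, 19 and 18. PM-L replicate 1 ranked 7 for Nppa but 22, 20 and 19.

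**Figure D4:**
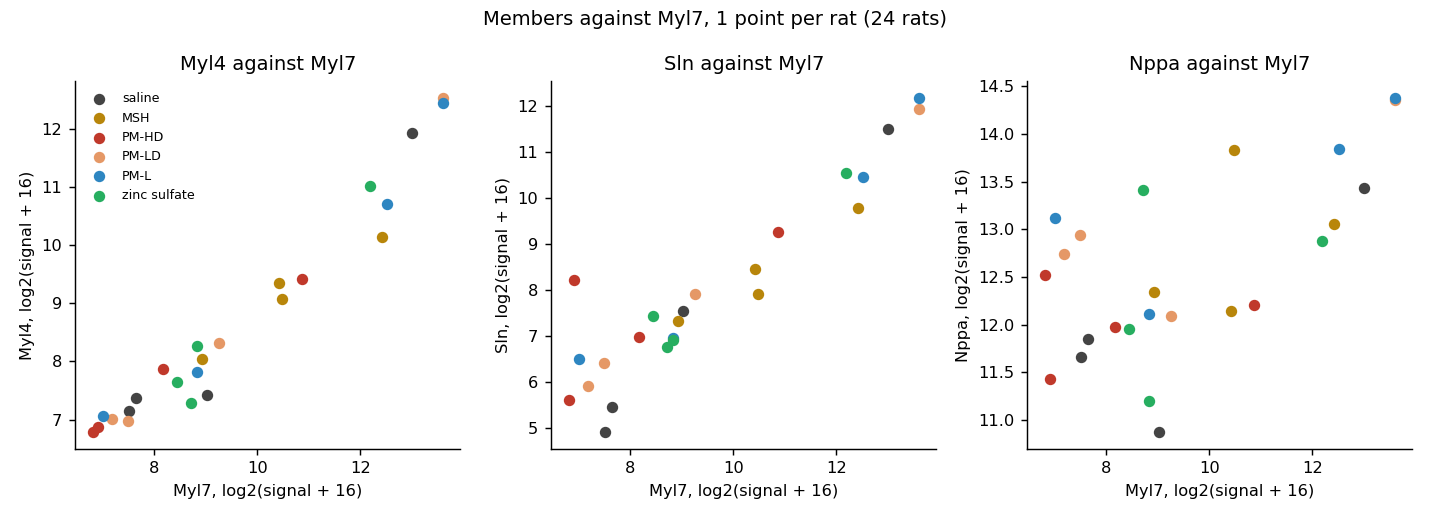
log2(signal + 16) of Myl4, Sln and Nppa (y axes) against that of Myl7 (x axes), 1 point per rat, colored by group. Myl4 and Sln track Myl7 (r = 0.975 and 0.934), whereas Nppa scatters (r = 0.627), with several rats low in Myl7 and high in Nppa.

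A straight line of log2 Nppa on the mean standardized level of Myl7, Myl4 and Sln left residuals from -1.48 to 1.18. They were largest on the high side in zinc sulfate replicate 1 (1.18), MSH replicate 3 (1.12) and PM-L replicate 1 (1.09), 3 rats from 3 groups. They were lowest in saline replicate 4 (-1.48) and zinc sulfate replicate 3 (-1.18). Nppa minus the mean log2 value of the other 3 ran from 1.28 to 5.14 in saline and from 1.63 to 6.27 in PM-L rats, and the ranges of all groups overlapped.

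What remained of Nppa ran with Nppb. The r of Nppb with Nppa was 0.779 (rho 0.801), with the Nppa residual 0.709 (0.718), and with the mean of the other 3 members 0.365 (0.197). Nppb signal lay between 2006.0 in a zinc sulfate rat and 12490.5 in a PM-LD rat, and it was called in none of the 6 comparisons. The Gapdh control probe sets moved with both peptides. Gapdh signal from the 3′ end over that from the 5′ end, a ratio that grows as RNA is degraded or copied less far, ran from 1.11 to 5.62, with wide overlap between groups. Its log2 value had r = -0.812 with Nppb, -0.574 with Nppa, -0.505 with the Nppa residual and -0.29 with the mean of Myl7, Myl4 and Sln. After removing a straight line on that ratio, r was 0.655 for Nppa with Nppb and 0.593 for the residual with Nppb, against 0.976, 0.931 and 0.939 among the other 3 members. With the ratio as a covariate, a choice made after seeing the data, Nppa in MSH relative to saline was called at 1.05 on the log2 scale (limma adjusted p = 0.85). Nppa in PM-L stayed called at 1.45 (limma adjusted p = 0.498). Over all probe sets the covariate fit called 738 in MSH and 914 in PM-L, against 567 and 674 in the main fit.

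Among 6772 probe sets with 1 symbol and a mean signal above the median, Mybphl was the most like Myl7, Myl4 and Sln. Mybphl encodes a myosin-binding protein of the atrium and conduction system, and its r with the mean of the 3 was 0.880 over 24 arrays (0.905 within groups, 0.804 without the 2 farthest arrays). Its signal ran from 99.5 to 761.1 and was highest in the same rat as the 3 members in each of the 6 groups. Sfrp1, a secreted Wnt antagonist, followed at 0.733, with Cops4, a subunit of the COP9 signalosome, at 0.732 and the glycolytic enzyme Pfkp at 0.692. Zwint (0.665), C10h5orf15 (0.663), Hamp (0.657), Ncoa4 (0.644), Nudt4 (0.610), Trappc1 (0.597), Epb41l1 (0.592) and the calmodulin gene Calm2 (0.589) completed the 12. Hamp encodes hepcidin and Ncoa4 a receptor for ferritin breakdown, both of iron handling. The r of Calm2 dropped to 0.284 without the 2 farthest arrays, whereas that of Hamp was 0.644. In all, 56 of the 6772 were above 0.5 and 70 below -0.5, around a median of -0.0093.

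The lowest values were those of Ybx3 (-0.701), Dchs1 (-0.699), Myo5a (-0.655), Pigo (-0.647) and Atp5mc3 (-0.646), the last a subunit of mitochondrial ATP synthase. Nppa had other neighbors. Bex1 was the most like it (r = 0.817), followed by Nppb (0.779), Tceal9 (0.765), Hopx (0.728), Hmgn2 (0.722), Ttc7b (0.695), Ube2d1 (0.693) and Pam (0.692). Without the 2 arrays farthest from the median of Nppa, r of these genes ran from 0.564 (Ttc7b) to 0.739 (Bex1). None of these values was adjusted for the Gapdh ratio. Pam encodes the peptide-amidating enzyme abundant in atrial granules, and Hopx a cardiac homeodomain-only protein.

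**Figure D5:**
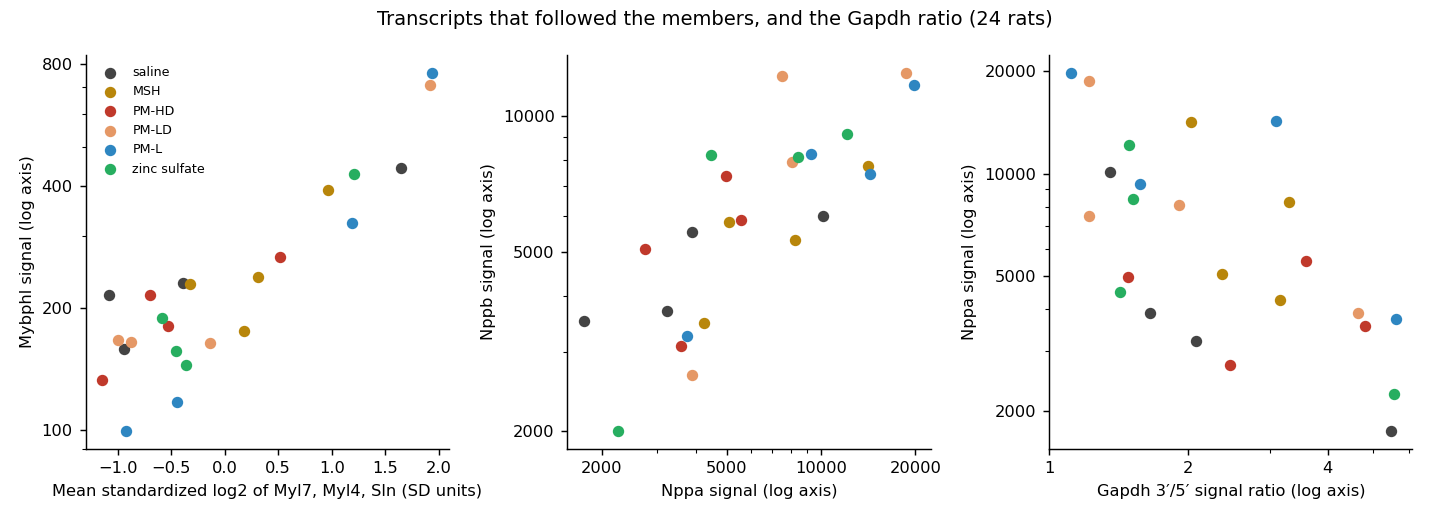
Left, Mybphl signal (log axis) against the mean standardized log2 level of Myl7, Myl4 and Sln (r = 0.880). Middle, Nppb against Nppa signal (log axes, r = 0.779). Right, Nppa signal against the ratio of 3′ to 5′ Gapdh signal (log axes, r = -0.574). Each point is 1 of 24 rats, colored by group.

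Mybphl had the highest r among other genes enriched in atrium. Of 17 measured genes of a list of 22, 1 had r above 0.5 with the mean of Myl7, Myl4 and Sln over the 24 arrays and 4 within groups, and the median was 0.252 against -0.0093 over the 6772 probe sets. Clu and Pam, the brightest of the list, had r of 0.442 and 0.454 (0.524 and 0.503 within groups, 0.146 and 0.216 without the 2 farthest arrays), and Dkk3 had 0.295. Stard10, second after Mybphl, had 0.466 (0.515 within groups, 0.294 without the 2). Gja5, a connexin of atrium and conduction tissue, had -0.190, and the atrial potassium channel gene Kcna5 had -0.295. Among the 17, the count called in each direction was at most 1 in each of the 6 comparisons. They were Fgf12, higher than in saline rats after MSH, PM-HD and zinc sulfate, and Chrm2, lower in zinc sulfate relative to both saline and MSH, named after their values were seen. None of Mybphl's own differences was called, the log2 values running from -0.31 to 0.00.

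The ventricular counterparts were bright. Myl2, the ventricular regulatory light chain, had a signal of 19808.8 to 41464.6 over the 24 arrays, so this defining ventricular marker was present in every sample. Its 3 lowest arrays in deposited signal, saline replicate 1 (19808.8), PM-LD replicate 2 (23138.2) and PM-L replicate 2 (25359.0), were the 3 highest for Myl7. Myh6 (21869.0, 26724.1 and 27412.4) and Myh7 were also lowest of their groups in these 3 rats. Deposited signal leaves array brightness uncorrected, and the array medians of the 3 were 220.5, 206.1 and 217.7, in a series from 206 to 278. Their Gapdh ratios were 1.354, 1.217 and 1.113, toward the low end of the series. The part of either in these low signals was not tested. After quantile normalization the SD of log2 Myl2 was 0.125 in saline, 0.126 in PM-LD and 0.037 in PM-L rats. On that scale, the r of Myl2 with the mean of the 3 members was -0.276 over all arrays, -0.457 within groups and -0.0653 without the 2 farthest arrays. Myl3, Pln and Myh7, the slow myosin heavy chain, had 0.133, -0.0121 and 0.0740, and Myh6, the heavy chain of atrium and of rat ventricle, -0.228. The calcium pump Atp2a2 had 0.262. Of 12 measured ventricular genes, the median r was -0.0756, that of their summed signal was -0.372, and 0 were called in any of the 6 comparisons. Irx4, a ventricular transcription factor, was dim (3.0 to 127.8). Of 8 myosin chains measured beside the members, 1 had r above 0.5, the essential light chain Myl1 (0.590), while r of their summed signal, which the bright Myh6, Myl2, Myh7 and Myl3 dominate, was -0.558. Sums were taken of signals before quantile normalization, so r of a sum and r of single genes are on different scales. None of the 8 was called.

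The 9 other measured genes of the natriuretic peptide pathway had a median r of 0.0753 with Nppa and -0.0797 with the mean of Myl7, Myl4 and Sln. The r with Nppa ran from 0.779 for the ligand Nppb to -0.670 for Npr1, the receptor of both peptides. The phosphodiesterase Pde2a had -0.539 and Npr2, the receptor of the C-type peptide, -0.415. The values with Nppa, here and in the cardiac stress list, were not adjusted for the Gapdh ratio. The log2 value of that ratio had r = -0.574 with Nppa itself. With the mean of the other 3 members Npr1 had -0.419, which shrank to -0.0858 without the 2 farthest arrays. Npr3, the clearance receptor, had 0.586 with the mean of the 3 but was dim (6.9 to 47.5). Of the 10 measured genes of the pathway, Nppa in PM-L was the 1 call in any comparison. In the cardiac stress list the median r with Nppa over 11 other genes was 0.42, from 0.779 for Nppb to -0.123 for Timp1, and of its 12 measured genes, Nppa and Tnc were called higher, in PM-L and in MSH relative to saline, and Ccn2 lower in zinc sulfate relative to MSH, the latter 2 named after their values were seen. Of 13 measured calcium pump and store genes, 0 were called in any comparison, and the median r of the 12 beside Sln was -0.0254.

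Markers of other cell types were set beside the members over the 24 arrays. The median r of a list's measured markers with the mean of Myl7, Myl4 and Sln was -0.324 for 4 endothelial, -0.11 for 6 fibroblast, -0.0936 for 6 smooth muscle and -0.11 for 6 epicardial and mesothelial markers. It was 0.289 for 4 endocardial and valve markers and 0.0508 for 5 sinus node and conduction genes. For red blood cell (-0.0545), nerve (-0.146), leukocyte (-0.0518), fat cell (0.063), fast skeletal muscle (-0.0242) and lung (0.249) markers it lay between these. These medians are over all 24 arrays. Without the 2 farthest arrays, r of the 4 endothelial markers shrank to between -0.0927 (Vwf) and -0.00837 (Cav1). That of the 4 endocardial and valve markers was then between 0.0618 (Comp) and 0.599 (Npr3). The r of a list's summed signal was opposite in sign for smooth muscle (0.345), where Des, the brightest of the list and also a gene of cardiomyocytes, had 0.345 by itself. For fast skeletal muscle the sum had -0.427, and Myh1 and Ckm, the latter a gene of heart muscle too, were its bright markers. The sums had r of -0.357 for endothelial, -0.148 for fibroblast, -0.314 for epicardial, 0.263 for endocardial and -0.306 for red blood cell markers. They had -0.336 for nerve, -0.169 for leukocyte and 0.208 for lung markers. For conduction genes (-0.0979) and fat cell markers (-0.00534) the sums were also opposite in sign to the medians. With Nppa, the 4 endothelial markers had a median r of -0.512, not adjusted for the Gapdh ratio. The summed endothelial signal was 12390 to 21860 in saline and 8958 to 20350 in PM-L rats, with overlap.

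Of the 58 markers measured in these 12 lists, 1 to 3 were called in each comparison with saline, and 8 in zinc sulfate relative to MSH, where 6.66% of all probe sets were. The genes named here were picked after their values were seen. Shox2, a sinus node gene that was dim (mean signal 89.2), was higher than in saline rats in MSH, PM-LD, PM-L and zinc sulfate, Cntn2 in MSH and Isl1 in PM-HD. Msln was lower in MSH and PM-HD, Krt8 and Cd3e in PM-LD and Ucp1 in PM-L. Relative to MSH, zinc sulfate rats were lower in Shox2, Cntn2, the fibroblast markers Col3a1, Dcn and Lum, Acta2 and Th, and higher in Smtn. The part of these in the members' spread was not tested.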

How the data were processed

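RNA from 24 rat hearts was hybridized to the Affymetrix Rat 230A array, and the deposited values are MAS5 signal intensity, 1 value per probe set and array, which the authors scaled to a common trimmed mean (500.1 on every array). The study's own tests used RMA values, which were not used here. Array medians ran from 206 to 278, and precision is limited by having 4 arrays a group. The 57 control probe sets were left out and 15866 were tested, of which 12783 have 1 symbol, 312 several and 2771 none in the platform annotation. Members and gene lists were chosen with earlier results of these data known. A gene is represented by its brightest probe set.

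Signals were transformed as log2(signal + 16) and quantile normalized, and folds are on that scale, which understates changes of dim genes. Group means were fitted with limma 3.58.1 (R 4.3.3, lmFit and eBayes), on the 16 arrays of saline, MSH, PM-HD and zinc sulfate, or on all 24 for PM-LD and PM-L. The call rule, p under 0.05 and a change of over 25% up or down, was that of the study. Exact permutation tests used unnormalized log2(signal + 16). The summed signals of gene lists were also unnormalized, unlike the values behind the r of single genes. Correlations are descriptions. The fit was tested on simulated data. Most genes were named by rule. These were the members, the 12 most and 5 least like the mean of Myl7, Myl4 and Sln, and the 8 most like Nppa. The brightest of each list and the ventricular and natriuretic counterparts were added. Other list genes, among them Stard10, Gja5, Kcna5, Npr3, Myl1 and Timp1, were named outside this rule, after their values were seen. Alternatives were the pseudocount, scaling, filter, prior, arrays in the fit, replicate block, and leaving out each array.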

Additional observations from a re-analysis of the deposited data

Results flagged for a closer look

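In 10 of the 24 sets of 4 rats (4 genes by 6 groups), 1 rat lay so far from the rest of its group that the gap to the next rat, divided by the whole range of signals, passed Dixon's 95% critical value for 4 samples. Chance gives this in about 1 in 20 independent groups, a rate that cannot be read against these sets: the members were chosen on the same signals, and 3 of them move together, so that the 10 come from 4 rats. On the log2 scale 2 of the 24 passed. For Myl7 the gap was 0.953 of the range in saline (replicate 1), 0.895 in PM-HD (replicate 2), 0.957 in PM-LD (replicate 2) and 0.966 in zinc sulfate (replicate 2). For Myl4 it was 0.986 in saline, 0.964 in PM-LD and 0.908 in zinc sulfate, in the same rats. For Sln it was 0.939, 0.951 and 0.963 in those 3 rats. No set of Nppa values passed, and none in MSH or PM-L.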

How the results depend on the processing

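Of 264 values of single members under other settings, 258 kept direction and side of the threshold. Of 192 values with 1 array left out, 152 did, and none of the 29 with the opposite direction was called. The count of members called was 1 in MSH with the Gapdh covariate and 0 in PM-L with median centering (main 0 and 1). With 1 rat left out it ran from 0 to 4 in MSH, 0 to 1 in PM-LD (Nppa without PM-LD replicate 3, 1.39, or without saline replicate 1, 1.57) and 0 to 2 in PM-L (Nppa, and Sln at 3.06 without saline replicate 1). Opposite directions came for Sln in PM-HD with a pseudocount of 64 (-0.092), Myl7 in PM-LD with the covariate (-0.083), and Myl4 in zinc sulfate with the deposited scaling (-0.0031) or the covariate (-0.00027), where the main values were 0.16, 0.09 and 0.08.

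With 1 rat left out, log2 differences from saline in PM-HD ran from -2.0 to 0.13 for Myl7, -1.30 to 0.42 for Myl4, -0.65 to 1.55 for Sln and -0.28 to 0.57 for Nppa. In PM-LD they ran from -1.32 to 1.33 for Myl7, -1.04 to 1.39 for Myl4 and -0.61 to 2.08 for Sln. In zinc sulfate they ran from -0.64 to 1.48 for Myl7, -0.74 to 1.24 for Myl4 and -0.31 to 1.96 for Sln, and relative to MSH from -1.33 to 0.026 for Sln. The cause was not tested.

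The median r among Myl7, Myl4 and Sln (0.944) was 0.912 without the 2 farthest arrays, 0.977 on unlogged signals, and 0.931 to 0.971 with 1 array left out. That of Nppa with them (0.627) was 0.456, 0.765, and 0.561 to 0.681. Over all probe sets, only those above the median signal gave 170, 164, 215, 227, 223 and 537 calls (main 567, 583, 652, 674, 707 and 1056). Fewer were tested, but the counts relative to saline fell by a larger share than the number tested. Without zinc sulfate replicate 3 there were 1315 relative to saline and 2306 relative to MSH.

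Within the 6 comparisons, deviations of same-numbered arrays had r of -0.205 to 0.195. Low values cannot show that the numbers do not pair the rats, and other pairs of groups were not tested. Replicate 3 had the highest Gapdh ratio and the lowest Nppa signal of its group in zinc sulfate (ratio 5.575), PM-L (5.624) and PM-LD (4.642). In the saline, MSH and PM-HD groups it had neither. Whether the replicate number reflects a shared step was not tested. The replicate block changed no count of members called (0 in MSH, PM-HD, PM-LD and zinc sulfate, 1 in PM-L, where Nppa was 1.41). The mean over probe sets was not run, since each member has 1.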
